A study of Mus musculus with 28 samples.

Results

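After 72 h, NIH3T3 fibroblasts at 1 mM glucose were set against NIH3T3 fibroblasts at 25 mM glucose. The comparison took every array labelled as NIH3T3, without K-ras, at 72 h: 2 arrays at 1 mM and 2 at 25 mM, so 4 of the 28 arrays in the series. NIH3T3 is an immortalised mouse embryonic fibroblast line. Its cells were plated, moved at 0 h from ordinary growth medium to fresh medium with 1 mM or 25 mM glucose and the same glutamine, and left in it until collection. The series also holds 0, 24 and 48 h and a second line, NIH3T3 K-ras, on the same arrays, in 14 groups of 2. It asked which genes respond to the glucose supply in the 2 lines. The labels name no treatment other than glucose, and they call the 2 arrays of a group biological replicates. They do not say whether the replicates came from cultures grown on different days. In the fit of all 28 arrays, p-values thus measure the spread between arrays of a group. It is pooled over the 14 groups and taken as equal in all of them.

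Fibroblasts in culture take glucose through glycolysis for energy and for carbon that feeds nucleotides, amino acids and glycans. Supply is sensed in several ways: the factors Mlxip and Mlxipl, with their partner Mlx, induce Txnip and Arrdc4 when glucose phosphates are plentiful, and these arrestin-like proteins then restrain glucose uptake. Shortage of amino acids, or of folding capacity in the endoplasmic reticulum, activates eIF2-alpha kinases and the factor Atf4, the integrated stress response. Growth factor signalling through RAS and MAP kinases induces immediate early genes, Myc and ribosome production, and it declines as cells crowd and exhaust serum.

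Each value below is a deposited log2 ratio of an array to the gene's median array in the series. A difference is 1 mM minus 25 mM, and levels cannot be compared between genes. Both lines had characteristic profiles, and all 4 arrays had that of NIH3T3. Il33, an alarmin cytokine that is low in the NIH3T3 profile, was at -6.38 and -6.44 at 1 mM, against -6.21 and -5.52 at 25 mM. Krt14, a keratin that is high in it, was at 2.41 and 1.39 at 1 mM, against 0.95 and 1.26 at 25 mM. Another 6 arrays of the series had the profile of the other line than their label. They are not among these 4, but they enter the estimate of the spread, so results are also given without them.

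The 1 mM arrays were far less alike than the 25 mM arrays. Over all 18193 genes the correlation between replicates was 0.28 at 1 mM and 0.88 at 25 mM. Replicate 1 at 1 mM correlated at 0.32 and 0.35 with the 25 mM arrays, and replicate 2 at 0.68 and 0.68. The replicates differed by over 1 log2 unit in 2034 genes (11.2%) at 1 mM and in 63 genes (0.346%) at 25 mM. The hybridisation control bioC, RNA added to every sample, was at 0.28 and -1.10 at 1 mM, against -2.12 and -1.27 at 25 mM, so replicate 1 at 1 mM stood above the other 3 arrays. The part of bioC in the results was not tested beyond a fit with it as a block. Each gene group below is therefore given for both 1 mM arrays. In bulk RNA, fewer cells with a transcript and less of it per cell cannot be told apart.

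Ranbp3l and Klhl9 were lower at 1 mM than at 25 mM. They were the only genes past the threshold (limma over all 28 arrays, Benjamini-Hochberg adjusted p under 0.05). They make 0.011% of the 18193 genes, and 0.0% were called higher. At an unadjusted p under 0.05 there were 1224 genes (6.73%), 676 higher (3.72%) and 548 lower (3.01%). Ranbp3l encodes a relative of Ran-binding protein 3 that carries SMAD factors out of the nucleus. It was at 1.84 and 1.76 at 1 mM, against 4.51 and 4.42 at 25 mM. Both 1 mM arrays lay below both 25 mM arrays, and the replicates of a group differed little. The means were 1.80 ± 0.06 at 1 mM and 4.47 ± 0.07 at 25 mM (SD, n = 2 each), and the log2 fold change was -2.66 ± 0.34 (limma SE, adjusted p = 0.00757). A second Ranbp3l probe set gave -1.13. Leaving out any 1 of the 4 arrays ended the call. So did fitting the 14 NIH3T3 arrays or the 4 compared arrays alone, quantile normalisation of the deposited ratios, or blocking on bioC.

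Klhl9, a substrate adaptor of a cullin-3 ubiquitin ligase that acts in mitosis, was at -0.44 and -0.25 at 1 mM, against 0.63 and 0.74 at 25 mM. Its log2 fold change was -1.03 ± 0.16 (limma adjusted p = 0.0411), with the groups apart. The call ended in 10 of the 13 alternatives in which it was measured, among them the fit without the 6 displaced arrays (adjusted p = 0.0749) and the fit with the replicate number as a block (adjusted p = 0.0631).

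Without the 6 displaced arrays, 8 genes (0.044%) passed, 4 higher and 4 lower at 1 mM. That fit has fewer residual degrees of freedom than the fit of all 28 arrays. Fosl1, an AP-1 factor induced by ERK, was at -1.53 and -1.71 at 1 mM, against -4.79 and -4.50 at 25 mM. Its log2 fold change was 3.03 (limma adjusted p = 1.05e-04 in this fit and 0.159 over all 28 arrays). Dusp4, a phosphatase that switches off MAP kinases, was at -0.65 and -0.45 at 1 mM, against -3.01 and -2.69 at 25 mM (log2 fold change 2.30, limma adjusted p = 2.57e-04 without the 6 arrays). Both genes lay more than 2 log2 units higher on each 1 mM array than on either 25 mM array.

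Ptgs2, the inducible cyclooxygenase, was also called higher at 1 mM in that fit. It was at -0.36 and 0.80 at 1 mM, against -2.36 and -2.85 at 25 mM (log2 fold change 2.82, limma adjusted p = 0.0105). Steap1, a membrane protein of a metalloreductase family, was at 0.67 and 1.35 at 1 mM, against -0.80 and -0.73 at 25 mM (1.77, adjusted p = 0.0434 by limma). Either direction held 0.022% of all genes. Those lower at 1 mM were Ranbp3l (limma adjusted p = 1.05e-04), Tlr1, Pxylp1 and Hsd17b11. Tlr1, a receptor for bacterial lipoproteins, was at 0.03 and 0.10 at 1 mM, against 2.32 and 2.14 at 25 mM (-2.17, limma adjusted p = 0.00529). Pxylp1, a phosphatase of the glycosaminoglycan linkage region, was at -2.35 and -2.57 at 1 mM, against 0.49 and -0.10 at 25 mM (-2.66, limma adjusted p = 0.00844), but another of its probe sets gave -0.03. Hsd17b11, a steroid dehydrogenase of lipid droplets, was at 0.01 and -0.06 at 1 mM, against 1.85 and 1.88 at 25 mM (-1.90, limma adjusted p = 0.00844), and another probe set gave 0.19. The groups stood apart in all of these genes.

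The other genes with the smallest unadjusted p and groups apart did not pass in either fit. On the higher side, Cars, the cysteinyl-tRNA synthetase, was at 0.71 and 0.62 at 1 mM, against -0.51 and -0.87 at 25 mM. Arid5a, an RNA-binding stabiliser of Il6 mRNA, differed by 2.08, and the receptor tyrosine kinase Epha2 by 2.01. Nop2 and Trmt61a, methyltransferases of ribosomal RNA and of tRNA, differed by 1.20 and 1.39, and Mtbp, a partner of Mdm2 and of replication origins, by 1.26. Their limma adjusted p lay between 0.159 and 0.213.

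On the lower side were Tspyl1, of a nucleosome assembly family (-2.40), the tankyrase Tnks2 (-1.54), the protocadherin Pcdhb16 (-1.72), the cadherin Cdh26 (-1.30) and Wfdc12 (-0.92), with limma adjusted p between 0.159 and 0.278. Of all genes, 143 (0.786%) were at least 1 log2 unit higher without overlap and 414 (2.28%) at least 1 lower. Tnks2 and Pcdhb16 had another probe set at 0.06 and 0.46, and Tspyl1 one at -0.69. On the higher side, the second probe sets of Fosl1 and Cars gave 1.99 and 0.62.

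**Figure D1:**
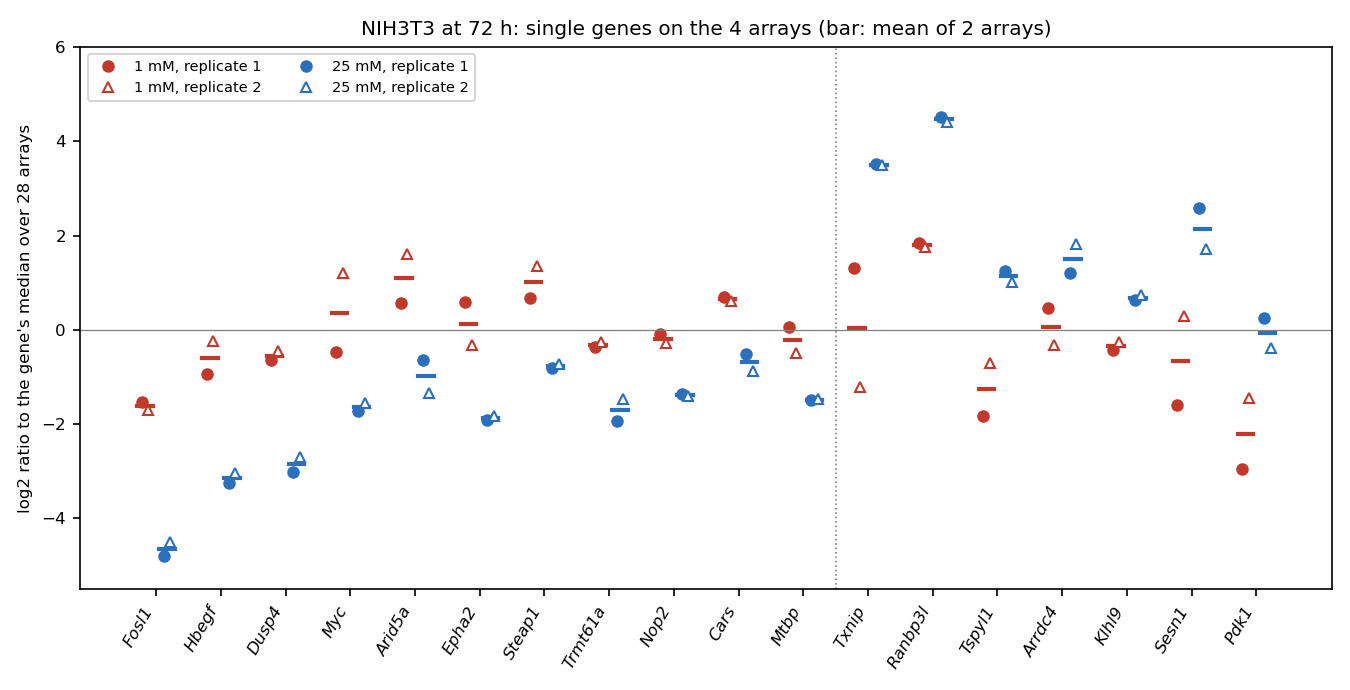
Log2 ratio (vertical axis) of 18 genes on the 2 arrays at 1 mM (red, left of each pair) and the 2 arrays at 25 mM (blue, right) in NIH3T3 at 72 h; bars are means of 2 arrays, and a dotted line parts genes higher at 1 mM from genes lower at 1 mM. In each gene shown the groups do not overlap; the 1 mM arrays of Txnip (1.31 and -1.22) lie far apart and those of Ranbp3l (1.84 and 1.76) close together.

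Genes of glucose sensing held the most negative difference among the genes fixed by name, though it missed the threshold. Txnip was at 1.31 and -1.22 at 1 mM, against 3.51 and 3.50 at 25 mM. Its log2 fold change was -3.46 ± 1.08 (limma unadjusted p = 0.00514, adjusted p = 0.500), with a second probe set at -2.64. Both 1 mM arrays were lower, but they differed from each other by more than 2 units.

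Arrdc4, the nearest relative of Txnip in this response, was at 0.46 and -0.31 at 1 mM, against 1.21 and 1.82 at 25 mM (-1.44, limma adjusted p = 0.654). Arrdc3 was at -1.20 and -0.46 at 1 mM, against -0.07 and 0.06 at 25 mM. Mlxipl and Mlx differed the other way, by 0.57 and 0.52. Of the 12 genes in the glucose-sensing list, 0 were called, 5 were lower and 3 higher without overlap; 17.4% of all genes were lower and 24.0% higher without overlap.

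The promoter of Arrdc4 is shown because its arrestin is a known target of the glucose-sensing factors, which bind paired E-boxes. The windows printed here come from RefSeq promoters (GRCm38.p6, 250 bases before to 50 after the start), run 5′ to 3′ along the gene, and hold the motif on either strand in capitals, with 20 bases on each side. The Arrdc4 window is chr7:68749406-68749451 on the minus strand, with 1 E-box (CACGTG).
Arrdc4: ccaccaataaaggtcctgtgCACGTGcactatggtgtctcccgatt
An E-box was in 10.2% of the 14452 genes with a promoter in the table, and in 5 of 10 of the glucose-sensing list. A strict form of the carbohydrate response element, a pair of exact CACGTG with 5 bases between, was in 0 of the 14452. This search found no promoter at all, so it cannot say which genes carry the element. The Txnip and Ranbp3l windows held none of the motifs in the exact forms searched, and looser forms were not searched.

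Genes that handle glucose itself showed little that both 1 mM arrays shared. Slc2a1, the main glucose transporter, was at -0.76 and 0.57 at 1 mM, against 0.08 and 0.09 at 25 mM, and lactate dehydrogenase A, Ldha, was at -0.02 and -1.17, against -0.65 and -0.52. Hexokinase Hk2 was higher without overlap, mainly on replicate 2, at -0.75 and 1.09 at 1 mM, against -1.07 and -0.92 at 25 mM (limma adjusted p = 0.815). In the glycolysis list 2 of 22 genes were higher and 6 lower without overlap, where 24.0% and 17.4% of all genes were. The list also holds the pyruvate dehydrogenase kinases, which are not glycolytic enzymes, and Pdk1 and Pdk2 are among the 6. The median difference was -0.18, and over all genes it was 0.05.

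Of the 4 kinases that close the mitochondrial entry of pyruvate, 2 lay lower at 1 mM without overlap, short of the threshold. Pdk1 was at -2.94 and -1.45 at 1 mM, against 0.26 and -0.38 at 25 mM (-2.14, limma adjusted p = 0.678), though another of its probe sets gave -0.30. Pdk2 was at 0.72 and 1.17 at 1 mM, against 2.25 and 2.17 at 25 mM (-1.26). Pdk3 and Pdk4 overlapped between the groups, with differences of -0.25 and 0.46. Respiratory complex I had 0 of 33 genes higher and 12 lower without overlap, with a median of -0.11, where 24.0% and 17.4% of all genes were. On replicate 2 it had 22 of 33 genes below both 25 mM arrays and on replicate 1 it had 14, where all genes gave 37.1% and 33.8%. Above both 25 mM arrays it had 0 on replicate 2 and 12 on replicate 1, where all genes gave 40.4% and 47.2%. Medians over the 25 mM mean were -0.32 for replicate 2 and -0.01 for replicate 1, so the difference lay mainly on replicate 2.

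Aminoacyl-tRNA synthetases of the cytosol, which load amino acids onto tRNAs, lay higher at 1 mM on both arrays. Without overlap, 16 of 19 were higher and only Qars was lower (1 gene), where 24.0% and 17.4% of all genes were. The median difference was 0.81, or 0.72 for replicate 1 and 0.97 for replicate 2 alone. 0 of the 19 were called over all genes, and 12 had an unadjusted limma p under 0.05 on the higher side, as had 3.72% of all genes. Aars, for alanine, was at 0.76 and 1.13 at 1 mM, against 0.07 and -0.35 at 25 mM. Iars, for isoleucine, was at 0.16 and 0.41 at 1 mM, against -0.35 and -1.06 at 25 mM. Yars and Gars, for tyrosine and glycine, differed by 0.96 and 0.81. These and other list examples were chosen after their values were seen.

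The amino acid response element, where Atf4 dimers bind, was searched as TGATGNAA. It was in 5 of the 12 synthetase genes with a promoter in the table (41.7%), in 9 of 27 integrated stress response genes (33.3%) and in 3.24% of all genes. The 5 synthetases are Aars, Gars, Iars, Tars and Yars, and each lay higher at 1 mM without overlap. So did 16 of all 19 measured synthetases, so this was not particular to those with the element. Windows are shown for Gars (chr6:55037951-55037998, plus strand), for asparagine synthetase Asns (chr6:7693205-7693252, minus strand) and for the glutathione-degrading enzyme Chac1 (chr2:119351029-119351076, plus strand), as examples of the synthetases and of the stress response, whose values at 1 mM are given with those lists. In Gars and Chac1 the match reads on the opposite strand.
Gars: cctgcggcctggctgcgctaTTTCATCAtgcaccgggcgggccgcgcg
Asns: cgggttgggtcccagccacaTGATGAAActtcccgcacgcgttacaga
Chac1: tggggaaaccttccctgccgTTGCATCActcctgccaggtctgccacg
A match is a description of these letters, and binding was not measured.

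Enzymes of serine synthesis and one-carbon metabolism, which supply carbon for nucleotides and glycine, were higher at 1 mM in part. Without overlap, 8 of 16 were higher and 0 lower, against 24.0% and 17.4% of all genes. The median was 0.37, or 0.62 for replicate 1 and 0.40 for replicate 2 alone. None of the 16 was called over all genes, and 6 had an unadjusted limma p under 0.05 on the higher side, as had 3.72% of all genes. Mthfd2, a mitochondrial folate enzyme, was at -0.14 and 0.33 at 1 mM, against -1.63 and -1.84 at 25 mM (1.83, limma adjusted p = 0.449). Shmt2, which makes glycine from serine in mitochondria, differed by 1.48, although another of its 4 probe sets gave 0.34. Phgdh, the first enzyme of serine synthesis, differed by 0.70, and Psph, the last, by 1.23.

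Nucleolar and ribosome biogenesis genes also lay higher at 1 mM on both arrays. Without overlap, 31 of 40 were higher and 0 lower, against 24.0% and 17.4% of all genes. The median was 0.70, or 0.80 for replicate 1 and 0.56 for replicate 2 alone. Replicate 1 had 36 of 40 and replicate 2 had 35 of 40 above both 25 mM arrays, where all genes gave 47.2% and 40.4%. Over all genes, 0 of the 40 were called. On the higher side, 15 had an unadjusted limma p under 0.05, as had 3.72% of all genes. Nop2 was at -0.10 and -0.28 at 1 mM, against -1.36 and -1.41 at 25 mM. Nop56, a core protein of box C/D particles that guide rRNA methylation, was at -0.23 and -0.68 at 1 mM, against -1.998 and -1.79 at 25 mM (1.44, limma adjusted p = 0.329). Rrp12, needed for export of ribosomal subunits, differed by 1.51, and Mybbp1a and Gnl3 by 1.12 and 1.05. Ribosomal protein genes, in contrast, had 7 of 41 higher and 7 lower without overlap, with a median of 0.07.

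The E-box bound by Myc was in 8 of 35 nucleolar genes with a promoter (22.9%), against 10.2% of all genes. That share was not particular to genes higher at 1 mM. Among lists that lay lower, it was 38.9% for lysosome and autophagy, 22.2% for quiescence and FOXO targets, and 6.67% for complex I. Binding by Myc was not measured. The Nop2 window (chr6:125131803-125131848, plus strand) is shown as the member with the smallest p.
Nop2: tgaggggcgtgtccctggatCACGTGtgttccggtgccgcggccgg
Myc itself was at -0.48 and 1.20 at 1 mM, against -1.72 and -1.56 at 25 mM (2.004 ± 0.59, limma adjusted p = 0.471). Both 1 mM arrays were above both 25 mM arrays, with replicate 2 the higher.

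RAS-MAPK output genes, the transcripts and feedback inhibitors that follow ERK activity, had 16 of 26 higher and 2 lower at 1 mM without overlap, where 24.0% and 17.4% of all genes were. The median was 0.91, or 0.82 for replicate 1 and 0.86 for replicate 2 alone. In the fit without the 6 displaced arrays 2 of the 26 were called higher, Fosl1 and Dusp4, where 0.022% of all genes were. In the fit of all 28 arrays 0 were. Hbegf, an EGF receptor ligand, was at -0.93 and -0.24 at 1 mM, against -3.24 and -3.03 at 25 mM (2.55, limma adjusted p = 0.631). Dusp6, an ERK phosphatase, was at -0.88 and -0.75 at 1 mM, against -1.76 and -1.78 at 25 mM. Phlda1 differed by 1.43. In each the 1 mM arrays stood together above the 25 mM arrays. Spred1, a RAS inhibitor, differed by -1.50, with another probe set at -0.08.

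Egr1, an immediate early factor, rested more on one array. It was at -0.89 and 2.60 at 1 mM, against -2.04 and -1.88 at 25 mM (2.82, limma adjusted p = 0.415). Without replicate 1 at 1 mM it was one of 2 genes called, both higher at 1 mM (log2 fold change 4.56, limma adjusted p = 0.0320). The other was Chchd10, a mitochondrial intermembrane protein, at 0.17 and 2.36 at 1 mM, against 0.04 and 0.39 at 25 mM. Without replicate 2 at 1 mM, only Tnks2 was called, and it was lower (-2.06, limma adjusted p = 0.0252).

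**Figure D2:**
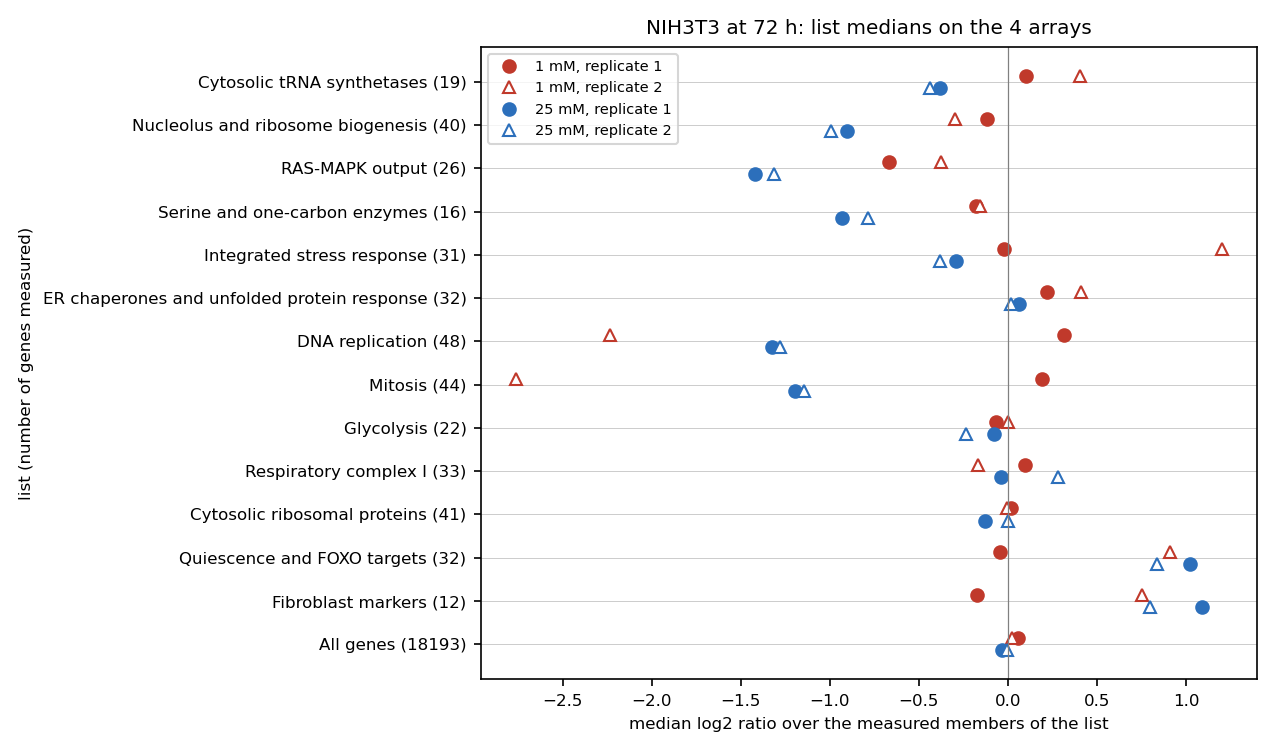
Median log2 ratio (horizontal axis) over the measured members of 13 gene lists and over all genes, for the 2 arrays at 1 mM (red) and, just under them, the 2 arrays at 25 mM (blue). For tRNA synthetases, the nucleolus, RAS-MAPK output and one-carbon enzymes both 1 mM arrays lie above both 25 mM arrays; for DNA replication the 1 mM arrays (0.32 and -2.23) lie on either side of the 25 mM arrays (-1.32 and -1.28).

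Integrated stress response genes were high on replicate 2 at 1 mM. There 29 of 31 lay above both 25 mM arrays and 0 below, with a median of 1.34 over the 25 mM mean. On replicate 1, 19 were above and 11 below, with a median of 0.29. Of all genes, 40.4% were above and 37.1% below on replicate 2, and 47.2% and 33.8% on replicate 1, so the count below on replicate 1 was near that of all genes. Ddit3, a pro-apoptotic factor of this response, was at -0.10 and 4.17 at 1 mM, against 0.29 and 0.28 at 25 mM. Chac1 was at 0.39 and 3.02 at 1 mM, against -0.53 and -0.55 at 25 mM. Atf3, a factor induced by Atf4, was at 0.56 and 4.34 at 1 mM, against -0.23 and -0.28 at 25 mM. The limma adjusted p of these 3 genes lay between 0.664 and 0.931, and in each the 1 mM arrays differed from each other by more than 2 log2 units. A second Ddit3 probe set gave a difference of 0.01. Atf4 itself overlapped between the groups, at -2.25 and 0.78 at 1 mM, against -0.51 and -0.40 at 25 mM. Its probe sets gave differences from -0.28 to 1.13. Trib3 and Pck2, also fixed by name, overlapped too. Trib3 was at -0.49 and 2.69 at 1 mM, against -0.19 and 0.08 at 25 mM. Pck2 was at -0.36 and 1.34 at 1 mM, against 0.34 and 0.11 at 25 mM.

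Some members were shared by both arrays. Asns was at 0.08 and 0.62 at 1 mM, against -0.32 and -0.38 at 25 mM (0.70, limma adjusted p = 0.744). Slc7a5 and Slc3a2, the 2 chains of a transporter of large neutral amino acids, differed by 1.42 and 1.21 without overlap. Bcat1, a branched-chain aminotransferase, was at 0.62 and 0.48 at 1 mM, against -0.69 and -0.77 at 25 mM (1.28). Over the list, 19 of 31 were higher and 0 lower without overlap, against 24.0% and 17.4% of all genes. The median was 0.97, and 0 were called.

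Chaperones of the endoplasmic reticulum showed a smaller difference on replicate 2. On replicate 2, 25 of 32 lay above both 25 mM arrays, where 40.4% of all genes did. On replicate 1, 14 of 32 did, near the 47.2% of all genes. Hspa5, the main chaperone there, was at -0.66 and 1.41 at 1 mM, against 0.02 and -0.41 at 25 mM. Without overlap 13 of 32 were higher and 4 lower, with a median of 0.42, where 24.0% and 17.4% of all genes were. The ER stress element, bound by Atf6 with NF-Y, was in 10 of 27 of these genes (37.0%) and in 0.138% of all genes. It is shown for Hspa5 (chr2:34772005-34772063, plus strand).
Hspa5: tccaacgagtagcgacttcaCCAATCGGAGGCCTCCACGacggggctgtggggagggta

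Cell cycle genes parted the 1 mM arrays in the opposite sense. Of 48 DNA replication genes, replicate 1 had 44 above both 25 mM arrays and replicate 2 had 44 below both, where all genes gave 47.2% and 37.1%. Medians over the 25 mM mean were 1.59 for replicate 1 and -0.88 for replicate 2. Of 44 mitosis genes, replicate 1 had 42 above and replicate 2 had 43 below, with medians of 1.43 and -1.67. Replicate 1 at 1 mM thus held more cell cycle mRNA than the 25 mM arrays, and replicate 2 held less.

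Single genes showed the same split. Mki67, a mark of cycling cells, was at 0.33 and -2.25 at 1 mM, against -0.39 and -0.60 at 25 mM. Cdc6, which loads the replicative helicase, was at 0.05 and -3.68 at 1 mM, against -2.65 and -2.78 at 25 mM. Bub1, a spindle checkpoint kinase, was at -0.32 and -3.68 at 1 mM, against -1.28 and -1.46 at 25 mM. The mean over the group hides this, since the list medians of the log2 fold change were 0.28 for DNA replication and -0.16 for mitosis, the second turning to 0.21 after quantile normalisation. Cdkn1a, an inhibitor of cyclin-dependent kinases, was higher on both, at 0.62 and 0.97 at 1 mM, against -0.28 and 0.13 at 25 mM (0.87, limma adjusted p = 0.678).

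**Figure D3:**
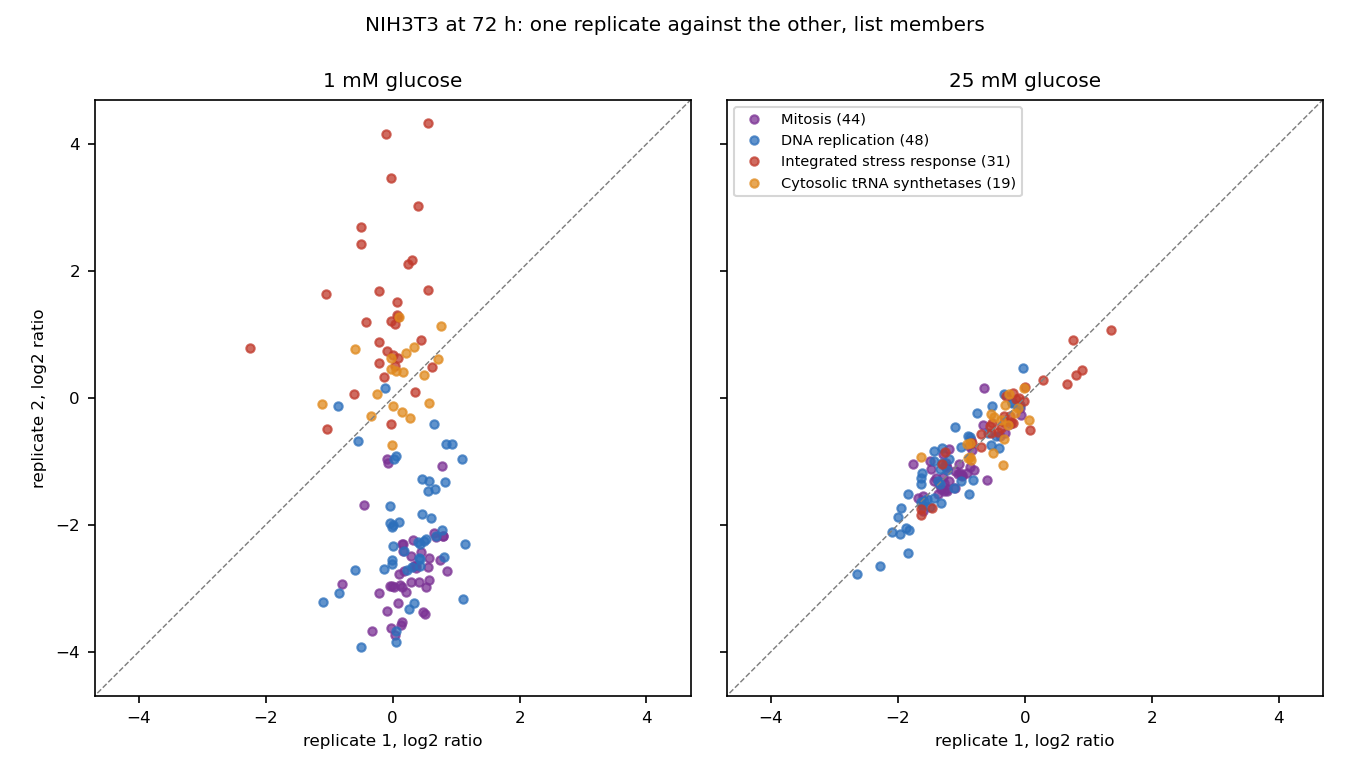
Log2 ratio on replicate 1 (horizontal) against replicate 2 (vertical) for members of 4 gene lists, at 1 mM (left) and 25 mM (right); the dashed line marks equal values. At 25 mM the members follow the line, and at 1 mM mitosis and DNA replication genes lie far under it and integrated stress response genes mostly above it, up to 4.34 on replicate 2 for Atf3.

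Genes tied to quiescence and FOXO factors lay lower at 1 mM, mainly on replicate 1. Without overlap, 14 of 32 were lower and 4 higher, where 17.4% and 24.0% of all genes were. The median was -0.44, or -0.83 for replicate 1 and -0.11 for replicate 2 alone. Sesn1, a sestrin that restrains growth signalling, was at -1.59 and 0.29 at 1 mM, against 2.58 and 1.71 at 25 mM (-2.79, limma adjusted p = 0.415), and another of its probe sets gave -0.60. Gas1, a growth arrest protein, was at 0.56 and 1.29 at 1 mM, against 2.60 and 2.07 at 25 mM, with another probe set at -0.30. Catalase, Cat, was at -1.44 and 0.19 at 1 mM, against 1.01 and 0.63 at 25 mM. Btg2, an antiproliferative gene of the same list, was at 0.64 and 0.91 at 1 mM, against -0.91 and -0.32 at 25 mM.

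Fibroblast genes also lay lower mainly on replicate 1. Of 12 fibroblast markers, 11 lay below both 25 mM arrays on replicate 1 and 6 on replicate 2, where 33.8% and 37.1% of all genes did. Medians over the 25 mM mean were -0.88 and -0.08. Pdgfra, a receptor for platelet-derived growth factor, was at -1.19 and 0.00 at 1 mM, against 1.11 and 0.91 at 25 mM. Dcn, a proteoglycan of collagen fibrils, was at -2.93 and 0.97 at 1 mM, against 1.07 and 0.87 at 25 mM. Its second probe set gave a difference of -0.13. Aspn, a relative of Dcn, was lower on both, at 0.25 and 0.59 at 1 mM, against 2.56 and 2.39 at 25 mM (-2.05, limma adjusted p = 0.500).

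Collagens and fibrous matrix had 31 of 48 below both 25 mM arrays on replicate 1 and 18 on replicate 2, and lysosome genes had 30 of 44 and 15. All genes gave 33.8% and 37.1%, so both lists were near the share of all genes on replicate 2. The lists of epithelial, endothelial, leukocyte, muscle and fat markers had median differences between 0.05 and 0.10. The values have no absolute level, so whether any marker is present at all was not measured.

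Earlier times place these values. At 1 mM, Ranbp3l was at 1.26 on the 1 usable array at 48 h and at 1.84 and 1.76 at 72 h. At 25 mM it was at -0.01 and -0.03 at 0 h, 0.53 and 0.69 at 24 h, 1.82 and 2.39 at 48 h and 4.51 and 4.42 at 72 h. The 1 mM arrays at 72 h were thus near the 25 mM arrays at 48 h. The other 3 earlier 1 mM arrays labelled NIH3T3 had the K-ras profile and are not read here.

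Fosl1 ran the other way. At 1 mM it was at -2.03 at 48 h on that array and at -1.53 and -1.71 at 72 h. At 25 mM it was at -0.29 and -0.14 at 0 h, 0.14 and -0.45 at 24 h, -2.41 and -1.84 at 48 h and -4.79 and -4.50 at 72 h. The nucleolar list had medians of -0.12 and -0.30 at 1 mM and 72 h, between those at 25 mM, which were 0.52 and 0.55 at 0 h and -0.90 and -0.99 at 72 h. Among all arrays of the series, replicate 1 at 1 mM correlated best with a 25 mM NIH3T3 array of 24 h (0.62) and replicate 2 with one of 48 h (0.73). Those 25 mM groups were themselves uneven, with correlations between replicates of 0.58 at 24 h and 0.26 at 48 h. Each best match is thus to a single array and does not place the 1 mM arrays at a time.

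Txnip and Chac1 had no such course. Txnip at 25 mM was at 1.68 and 1.74 at 0 h, 1.35 and 0.71 at 24 h, -0.92 and 1.01 at 48 h and 3.51 and 3.50 at 72 h. Chac1 was at 0.39 and 3.02 at 1 mM and 72 h, and at 25 mM it lay between -0.75 and 0.28 on all 8 arrays.

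**Figure D4:**
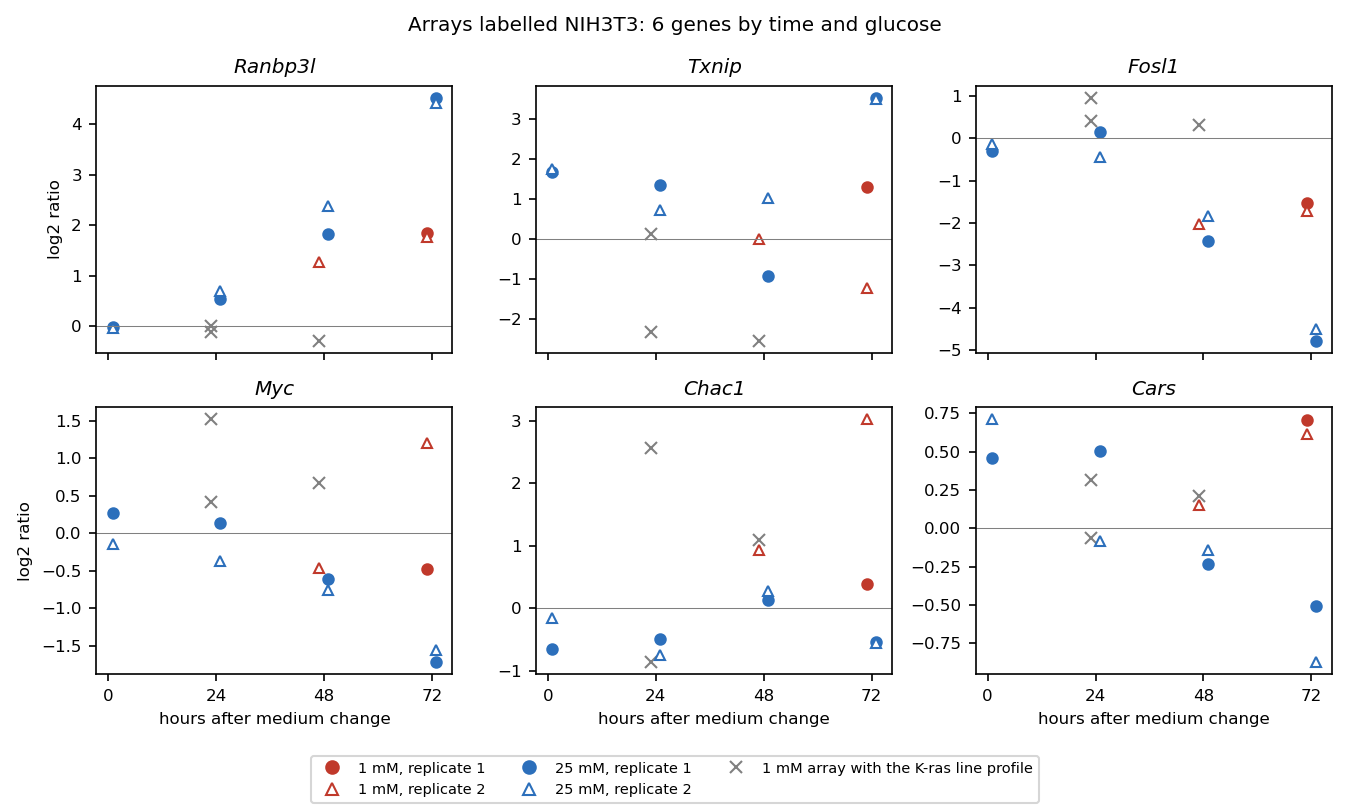
Log2 ratio (vertical axis) of 6 genes on the arrays labelled NIH3T3 against hours after the medium change (horizontal axis), at 1 mM (red, drawn left of each time) and 25 mM (blue, right); grey crosses are 3 arrays labelled 1 mM with the profile of the K-ras line. For Ranbp3l and Fosl1 the 1 mM arrays at 72 h (1.84 and 1.76; -1.53 and -1.71) lie near the 25 mM arrays of 48 h.

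The NIH3T3 K-ras line, whose making the labels do not describe, gives a side-by-side value at 72 h. One of its 2 arrays at 1 mM has the NIH3T3 profile, so over all 28 arrays its group mixes both profiles. Its own comparison of 1 mM with 25 mM called 6 genes higher (0.033%) and 27 lower (0.148%). A limma test of the difference between the 2 glucose differences called 0 of 18193 genes (0.0%), with 2220 at an unadjusted p under 0.05. Without the 6 displaced arrays, 128 genes (0.704%) passed, 88 more positive and 40 more negative in NIH3T3. The K-ras 1 mM group then holds 1 array, which is assumed to vary like the other groups. Leaving out 1 of the 8 arrays compared gave 0 to 1590 calls, the highest count without replicate 2 of the K-ras line at 25 mM.

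In that fit the difference for Fosl1 was 3.62 log2 units more positive in NIH3T3 than in the K-ras line (limma adjusted p = 0.00185), and for Ranbp3l it was -2.70 (limma adjusted p = 0.00207). For Dusp4 it was 1.43 and missed the threshold (limma adjusted p = 0.0711). Ranbp3l was at 0.10 on the K-ras array at 1 mM with its own profile, against -0.10 and 0.24 at 25 mM. Fosl1 there was at -0.24, against 0.30 and 0.39. Txnip was at -2.49 on that K-ras array at 1 mM, against 1.20 and 0.30 at 25 mM, and the difference between the lines was -0.22 (limma adjusted p = 0.958).

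In the same fit, the chaperones of the endoplasmic reticulum had 5 of 32 genes called more negative in NIH3T3 and 0 more positive, where 0.22% and 0.484% of all genes were called. These were Pdia4, Sdf2l1, Manf, Ero1b and Selenos, which fold, modify or clear proteins in that compartment. Cholesterol synthesis and uptake had 6 of 22 called more positive in NIH3T3, the synthesis enzymes Mvk, Pmvk, Fdps, Cyp51, Nsdhl and Dhcr7. In NIH3T3 alone the cholesterol list had a median of -0.19, with 8 of 22 lower and 1 higher without overlap, where 17.4% and 24.0% of all genes were. Both counts of difference between the lines rest on the 1 K-ras array at 1 mM.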

How the data were processed

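Total RNA was labelled with biotin and hybridised to Affymetrix mouse arrays, 1 per sample. Per the submitters' processing notes RMA was used, with a version and step not given in the sources used here. As deposited, the table holds log2 values of 45101 probe sets on 28 arrays, and in all 45101 the median linear ratio was 1 within 0.001, so the deposited log2 values are ratios to each probe set's median and carry no level or detection call. Signal over background is unknown, and the number of arrays limits precision. Probe sets with 1 symbol in the platform annotation (34945) were used, and the one with the largest SD over all arrays stood for a gene, which left 18193 genes. Probe sets with several symbols (932), none (9160) or controls (64) were left out.

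limma 3.58.1 (lmFit, eBayes; R 4.3.3) was fitted to all 28 arrays with 1 coefficient per group (14 residual degrees of freedom), with Benjamini-Hochberg adjustment over all 18193 genes. It was tested on simulated data. Errors of log2 fold changes are limma standard errors. "Without overlap" means both arrays of a group beyond both of the other. Genes named were the called ones, the 8 without overlap with the smallest p per direction, and 32 fixed by name, of which those measured were tested; list examples were chosen after their values were seen. The comparison, the 46 lists (1175 of 1290 entries measured) and the alternatives were chosen with earlier results of these data known. Lists are described by counts and medians, with no test. Promoter sequences came from RefSeq (GRCm38.p6), matched by symbol for 14452 genes. Figures used matplotlib 3.10.9.

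Same-numbered replicates of the 2 groups did not deviate together (correlation -0.06 over genes of the replicate differences), so the numbers were not taken as pairs.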

Additional observations from a re-analysis of the deposited data

How the results depend on the processing

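With 2 arrays a group and 2 unlike arrays at 1 mM, few calls were stable. Against 2 genes over all 28 arrays (0 higher, 2 lower), the limma count was 8 without the 6 displaced arrays (4 and 4). It was 0 with the 4 compared arrays alone, 0 with the NIH3T3 arrays alone and 0 after quantile normalisation of the deposited ratios. It was 0 with bioC as a block, 1 without genes of low SD, and 0 to 2 leaving out 1 of the 4 arrays. With the replicate block it was 1. At an unadjusted p under 0.05 these counts of 0 held 1537, 1156, 788 and 869 genes. The limma count of genes whose difference differed between the lines was 0, against 128 without the 6 arrays, 1 with the mean of probe sets (Ranbp3l) and 0 to 1590 leaving out 1 array of the 8, the highest without K-ras 25 mM replicate 2; it was 108 without K-ras 1 mM replicate 2 and 11 without NIH3T3 1 mM replicate 2. Ranbp3l had limma adjusted p-values from 1.05e-04 to 0.437. The share of genes higher at 1 mM among those without overlap was 57.9% as deposited, 49.8% after quantile normalisation and 45.6% with arrays centred, and the median of all genes was 0.05, 0.01 and -0.01. List medians kept their sign in every alternative for tRNA synthetases (0.69 to 0.97), nucleolus (0.56 to 0.80), RAS-MAPK output (0.73 to 1.06), one-carbon enzymes (0.28 to 0.62) and the integrated stress response (0.29 to 1.34), and those of DNA replication (-0.88 to 1.59) and mitosis (-1.67 to 1.43) did not. Of list medians under alternatives, 540 moved by less than the spread between replicates and 104 by more. Leaving out 1 array of a pair tends to move a median by no more than that spread by construction. The 540 thus include changes of sign and do not measure stability. The cause of these shifts was not tested.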

Other observations

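Other gene groups differed with opposite signs on the 2 arrays at 1 mM. Mitochondrial ribosomal proteins had 40 of 56 genes above both 25 mM arrays on replicate 1 and 29 of 56 below both on replicate 2, with medians of 0.39 and -0.19 over the 25 mM mean. Proteasome subunits had 22 of 33 above on replicate 1 and 18 of 33 below on replicate 2 (0.59 and -0.15). Purine and pyrimidine synthesis had 20 of 24 above on replicate 1 and 13 of 24 below on replicate 2 (0.89 and -0.20). Heat shock genes had 11 of 18 above on replicate 1 and 10 of 18 below on replicate 2 (0.43 and -0.15). That list is mainly cytosolic but also holds the mitochondrial chaperones Hspa9, Hspd1 and Hspe1. Of all genes, 47.2% lay above both 25 mM arrays on replicate 1 and 37.1% below both on replicate 2.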
